A study of Mus musculus with 6 samples.

Results

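Of 382006 merged accessible regions in the E11.5 mouse face, 69940 were called in all 6 libraries, and in 668 of these the strongest summit lay inside a protein-coding exon, more than 5 kb from every start site of a protein-coding transcript. These 668 coding-exon regions are described here. They were chosen by the peak calls themselves. Peaks of all libraries that shared at least 1 bp were merged, a region was kept when every library called a peak in it, and its strongest summit, the one with the best rank by −log10 p within its own list, had to fall in annotated coding sequence (CDS). Presence in all libraries, peak strength and distance to start sites are therefore properties of the choice and are given as descriptions. No filter on low values was applied, and all 668 regions entered every count.

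The libraries were made by ATAC-seq, in which Tn5 transposase inserts adapters into accessible DNA, from freshly dissected tissue of wild-type embryos with no treatment named. The 3 labels, maxillary process (upper jaw), mandibular process (lower jaw) and nose, had 2 libraries each, and the cell type was given as mixed. Whether 2 libraries with the same label stem from different embryos is not given, so the spread between them may be technical in part. For the 4 jaw libraries, file names and labels disagree on which jaw is which. Labels are followed here, and values of the maxillary and mandibular labels would change places if the names were right. In mixed tissue, a weak peak in many cells and a strong peak in few cells cannot be told apart.

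Distant-acting enhancers are usually sought in introns and between genes, but exons can be accessible too. A coding exon carries the amino acid code and, in some genes, a regulatory element for its own or a neighbouring gene in the same bases. Nucleosomes tend to sit on exons, CpG-rich DNA tends to be nucleosome-poor, and CTCF, an insulator protein that anchors chromatin loops, binds a long motif that can fall in any of these places.

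Sequences are printed for 8 of the regions, as windows reaching 100 bp to each side of the strongest summit, read on the strand of the host gene from the reference genome GRCm38. The first 2 belong to the best-ranked regions of all and show how dense the CpG pairs are. The region in coding exon 5 of Prdm2 (chr4:143162059-143162259, minus strand) held 17 CpG pairs, and that in coding exon 2 of Kank3 (chr17:33817610-33817810, plus strand) held 27. Capitals mark CpG pairs.
Prdm2: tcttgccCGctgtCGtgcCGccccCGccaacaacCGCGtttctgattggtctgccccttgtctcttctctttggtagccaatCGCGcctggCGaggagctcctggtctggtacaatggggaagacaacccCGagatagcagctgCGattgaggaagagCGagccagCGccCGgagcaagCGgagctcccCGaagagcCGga
Kank3: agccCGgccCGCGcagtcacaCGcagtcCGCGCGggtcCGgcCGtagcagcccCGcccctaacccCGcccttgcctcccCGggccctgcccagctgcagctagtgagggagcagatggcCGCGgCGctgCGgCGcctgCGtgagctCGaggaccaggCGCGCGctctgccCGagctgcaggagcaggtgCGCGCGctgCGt

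The next 3 windows hold the best-ranked matches to the CTCF motif, in capitals. The Cacna1a window is chr8:84639245-84639445 on the plus strand, the Gipr window chr7:19157558-19157758 on the minus strand, and the Zfp219 window chr14:52008955-52009155 on the minus strand. In each the same run of letters appears on the host gene's strand, which places the motif, read in its usual direction, on the opposite strand.
Cacna1a: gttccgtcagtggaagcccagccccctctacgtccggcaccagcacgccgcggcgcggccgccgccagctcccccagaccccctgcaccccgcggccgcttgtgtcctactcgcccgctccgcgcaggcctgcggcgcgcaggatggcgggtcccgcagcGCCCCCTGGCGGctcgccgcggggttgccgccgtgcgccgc
Gipr: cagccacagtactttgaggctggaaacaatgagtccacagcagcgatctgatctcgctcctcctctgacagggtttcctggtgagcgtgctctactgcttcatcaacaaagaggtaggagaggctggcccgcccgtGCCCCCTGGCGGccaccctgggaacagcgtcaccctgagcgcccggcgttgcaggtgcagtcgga
Zfp219: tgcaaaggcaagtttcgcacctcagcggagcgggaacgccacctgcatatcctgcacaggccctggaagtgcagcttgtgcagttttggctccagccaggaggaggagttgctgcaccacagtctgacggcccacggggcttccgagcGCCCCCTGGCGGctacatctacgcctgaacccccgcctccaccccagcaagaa

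The last 3 show how a summit sits on an exon, with coding bases in capitals and intron in lower case. In Hdac9 (chr12:34215400-34215600, minus strand) the exon of 120 bp lies whole within the window. In Syne1 (chr10:5289384-5289584, minus strand) 189 bases are coding, and in Barx2 (chr9:31858775-31858975, minus strand) all of them are.
Hdac9: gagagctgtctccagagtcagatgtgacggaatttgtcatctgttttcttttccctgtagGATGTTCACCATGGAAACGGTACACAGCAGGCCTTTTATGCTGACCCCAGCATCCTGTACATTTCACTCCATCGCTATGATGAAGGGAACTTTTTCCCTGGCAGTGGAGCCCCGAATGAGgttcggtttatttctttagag
Syne1: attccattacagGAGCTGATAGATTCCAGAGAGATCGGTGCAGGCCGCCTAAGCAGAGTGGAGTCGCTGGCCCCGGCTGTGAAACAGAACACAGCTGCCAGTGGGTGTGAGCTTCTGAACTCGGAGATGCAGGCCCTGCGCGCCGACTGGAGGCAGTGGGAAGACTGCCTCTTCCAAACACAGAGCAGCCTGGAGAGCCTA
Barx2: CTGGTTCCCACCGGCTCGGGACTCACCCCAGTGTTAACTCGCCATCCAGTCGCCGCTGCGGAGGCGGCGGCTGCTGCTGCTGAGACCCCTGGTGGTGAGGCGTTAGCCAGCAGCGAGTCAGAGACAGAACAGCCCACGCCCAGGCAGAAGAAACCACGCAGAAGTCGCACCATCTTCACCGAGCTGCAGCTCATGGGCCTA

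Coding-exon regions were rare. They made up 0.955% of the 69940 regions, or 1.39% (Wilson 95% interval 1.29 to 1.50) of the 48060 that lay over 5 kb from start sites, where 18952 were intronic and 23569 intergenic. The rest had summits in other annotated exons or in introns of genes that are not protein-coding. They are left out of the intronic and intergenic sets used below. Intervals here and below cover counting error only, and neighbouring regions are not independent. Coding-exon regions made up 0.955% (0.886 to 1.03) of the regions called in all libraries. The share was 1.17% (1.12 to 1.22) among regions called in 1 library, an interval that lies above the former, and between 0.952% and 1.09% among those called in 2 to 5. In these shares the whole includes regions within 5 kb of start sites, which could not be members. Among regions called in 1 library, 1976 coding-exon regions stood beside 63885 intronic and 76788 intergenic ones over 5 kb away. For all libraries it was 668 beside 18952 and 23569. Set against such distal regions, coding-exon regions were thus not scarcer in all libraries than in 1. Coding bases over 5 kb from start sites, here called eligible bases, came to 23795220 on the longest coding transcript of each gene, which gave 28.1 coding-exon regions per megabase. Regions called in all lists covered 1.49% of them.

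The 668 regions fell in 622 host genes, which is 4.16% of the 14943 genes with eligible bases. In 578 hosts there was 1 region, in 42 there were 2, and Syne1 and Eps8l1 had 3 each. Start distance ranged from 5.01 to 474 kb with a median of 23.2 kb. It was 5 to 10 kb for 174 regions, 10 to 50 kb for 312, 50 to 100 kb for 95 and more for 87. For 236 regions (35.3%, 31.8 to 39.0) the nearest start site belonged to a gene other than the host.

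In size and rank the coding-exon regions resembled other distal regions. Their median width was 499 bp, against 481 bp for intronic and 503 bp for intergenic regions. Rank percentile, which runs from 0 to 100 with 100 for the strongest summit of a list, was taken as the median over the 6 libraries for each region. Its median over the coding-exon regions was 69.5, against 67.4 for intronic, 69.6 for intergenic and 74.0 for all regions called in every library. The range was wide, from 13.7 to 99.8, with 97 regions over 90 and 141 under 50. The median −log10 q over the regions was 5.76 and 11.7 in the libraries labelled maxillary process, 8.28 and 7.21 in those labelled mandibular process, and 7.04 and 8.06 in those labelled nose. Such values follow each library's own depth and background, so that comparisons between libraries rest on ranks. The 6 lists held 219779 to 299731 lines, and the second maxillary and first mandibular list, with 299726 and 299731 lines, began at −log10 q of 2.55 and 1.62, above the floor that the other 4 shared.

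Exons and regions rarely shared their borders. The median host exon was 208 bp long, and 408 regions (61.1%, 57.3 to 64.7) ran past both ends of it, 173 past one end and 87 past neither, so that coding bases made up a median of 52.6% of a region. The summit lay within 25 bp of an exon edge in 149 regions (22.3%, 19.3 to 25.6), fewer than the 29.9% of eligible bases that lie there. Libraries did not always place the summit alike. In 372 regions all 6 libraries had their own best summit in coding sequence, in 100 regions 5 did, and in 18 regions a single library did. All 6 summits stood within 100 bp of the strongest one in 365 regions. Where the summits of the libraries differ, the words coding-exon region describe the strongest one.

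Best-ranked of all was the region in Prdm2, a PR domain zinc finger gene of the family that holds histone methyltransferases. Its −log10 q was 51.5 and 59.8 in the libraries labelled maxillary process, 54.1 and 60.8 in those labelled mandibular process and 53.7 and 65.5 in those labelled nose. The labels overlapped, and its rank percentile was 99.5 or more in each library. It covered 1211 bp around coding exon 5 of 8, a 127 bp exon 50.5 kb from the nearest start site, and the window shown above had 62.7% GC and a CpG observed to expected ratio of 0.862.

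Next came a region in Kank3, which encodes an ankyrin repeat protein. Its −log10 q was 43.2 and 56.6, 50.6 and 43.7, and 42.6 and 47.3, with labels ordered as before. It too was high in every library, with ranks from 98.9 to 99.5. The summit lay in coding exon 2 of 10, which is 1251 bp long, and the window reached 76.6% GC.

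After it came Inpp5b, an inositol polyphosphate 5-phosphatase gene, at 40.4 and 64.2, 54.3 and 45.5, and 38.1 and 42.5. A start site of a transcript that is not protein-coding stood 126 bp from this summit. The only other members of the first 12 with such a start within 1 kb were Magi2, a membrane scaffold gene, at 118 bp and Carns1, which encodes carnosine synthase, at 45 bp.

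Lrp6, a co-receptor for Wnt ligands, followed. The −log10 q was 36.8 and 58.0 in the libraries labelled maxillary process, 35.5 and 51.0 in those labelled mandibular process and 27.3 and 39.7 in those labelled nose, again with overlap between labels. In 3 of the 6 libraries the library's own summit lay in the coding sequence. This region sat at the very end of the gene, in coding exon 23 of 23 at 99.7% of the coding sequence, 116 kb from a start site of Lrp6 and 36.4 kb from that of Bcl2l14.

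Syne1, which encodes the giant protein nesprin-1 that ties the nucleus to the cytoskeleton, came next and had 3 regions in all. The strongest, in coding exon 54 of 145, had a −log10 q of 32.3 and 55.6, 34.1 and 36.4, and 37.1 and 42.5. The others lay in exons 46 and 59 with median ranks of 86.8 and 47.4, so that accessible exons of 1 gene differed widely in strength. The same held for Eps8l1, an actin-regulating gene, whose 3 regions in exons 6, 7 and 8 had median ranks of 82.7, 63.4 and 96.1. Magi2 had 2, at 97.8 and 38.2. In Pdzd2, a gene of PDZ domains, 2 separate regions at 93.6 and 46.4 lay in the same exon of 3934 bp, and both regions of C18orf63, at 92.9 and 58.3, lay in its last exon.

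The remaining genes of the first 12 were Msl3l2, Slc1a6 (a glutamate transporter), Rab6b (a GTPase of the Golgi), Ankrd24 and Lpar5 (a receptor for lysophosphatidic acid). Their median ranks ran from 96.4 to 97.8, and the standard deviation of the rank over the 6 libraries was between 0.587 and 1.39. Over all 668 regions that standard deviation had a median of 11.8. At the other end stood Med12, a Mediator subunit, with a median rank of 13.7, Larp4b, an RNA-binding protein gene, at 13.7, and Spata13 at 13.9.

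**Figure D1:**
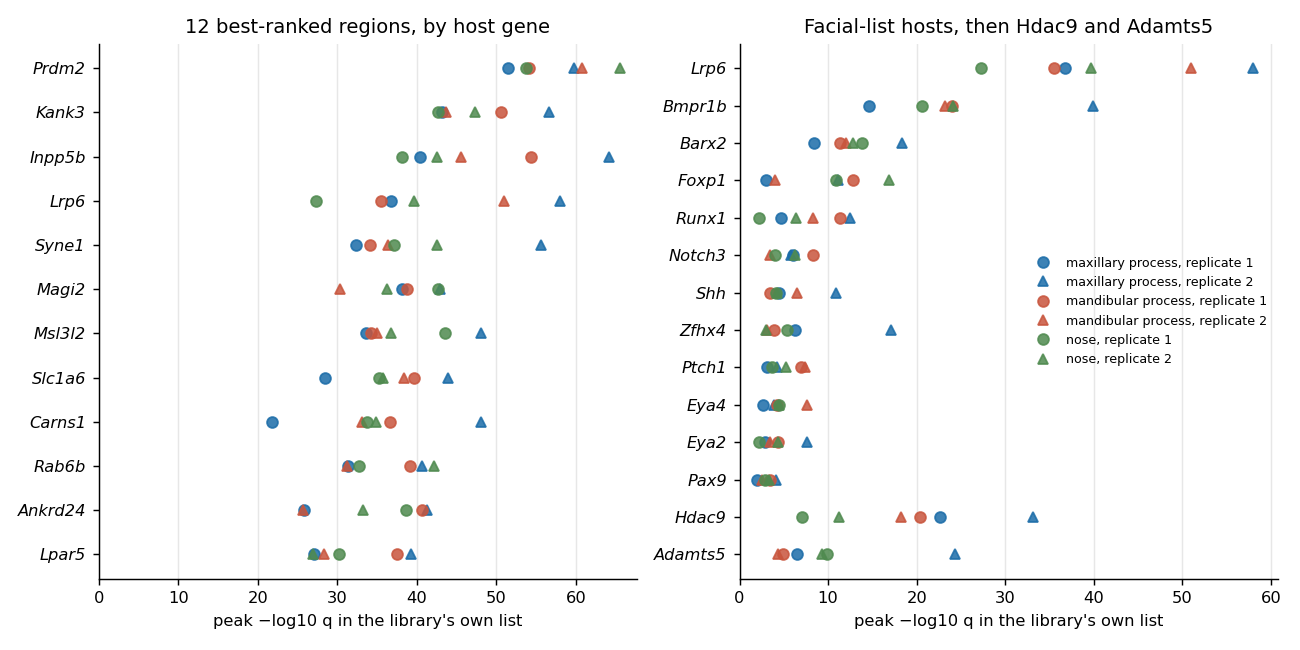
Peak −log10 q (horizontal axis) of single coding-exon regions, by host gene, with 1 point per library: colours give the label, circles replicate 1 and triangles replicate 2. Left, the 12 best-ranked regions, from 21.8 to 65.5; right, all 12 hosts of the facial gene lists followed by Hdac9 and Adamts5, where most values were lower and Lrp6, Bmpr1b and Hdac9 stood out.

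Next to the 5 kb limit, and just inside it, were regions in Cadm3 at 5.015 kb, Hoxc9 at 5.029 kb and Wnt8a at 5.031 kb, with median ranks of 63.3, 45.7 and 57.0. Just outside were 4930407I10Rik at 4.986 kb, Vgll2 at 4.982 kb and Tchh at 4.976 kb, with 61.0, 71.3 and 82.7.

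Exon class was not itself a criterion of the choice, but distance to start sites was and leaves out most first exons, so regions are set beside eligible bases, which lie over 5 kb from start sites too. Their shares differed from the shares of these bases. The last coding exon of its transcript held 176 regions, or 26.3% (23.1 to 29.8), while last exons make up 15.5% of eligible bases. Internal exons held 449 regions (67.2%, 63.6 to 70.7) on 80.2% of the bases. First coding exons held 26 (3.89%, 2.67 to 5.64) on 2.26%, and genes with a single coding exon held 17 (2.54%, 1.59 to 4.04) on 1.96%. Per megabase of eligible sequence this came to 47.6 regions in last exons and 48.3 in first exons, against 23.5 in internal exons. Here and below, a region was placed on the longest coding transcript at its summit, and bases on the longest of each gene. A summit in an exon missing from the latter has no bases to match it, and the part of this was not tested.

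Along the coding sequence the regions leaned to the end. The last 10% held 119 of them (17.8%, 15.1 to 20.9) on 11.3% of the bases, and the stretch from 70 to 80% held 97 (14.5%, 12.1 to 17.4) on 11.5%. In each of the 7 stretches of 10% up to 70% the share of regions was below the share of bases, though each of their intervals held the share of bases. Density also varied with exon length. Exons of up to 100 bp gave 17.0 regions per megabase, those above that and up to 200 bp 24.2, up to 500 bp 37.2, up to 1000 bp 47.3 and longer ones 28.5. The longest host exons belonged to Ank2 (6198 bp), which encodes the membrane adaptor ankyrin-B, the zinc finger homeobox gene Zfhx4 (5403 bp) and the zinc finger gene Hivep2 (5139 bp), with median ranks of 74.6, 53.2 and 69.2.

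**Figure D2:**
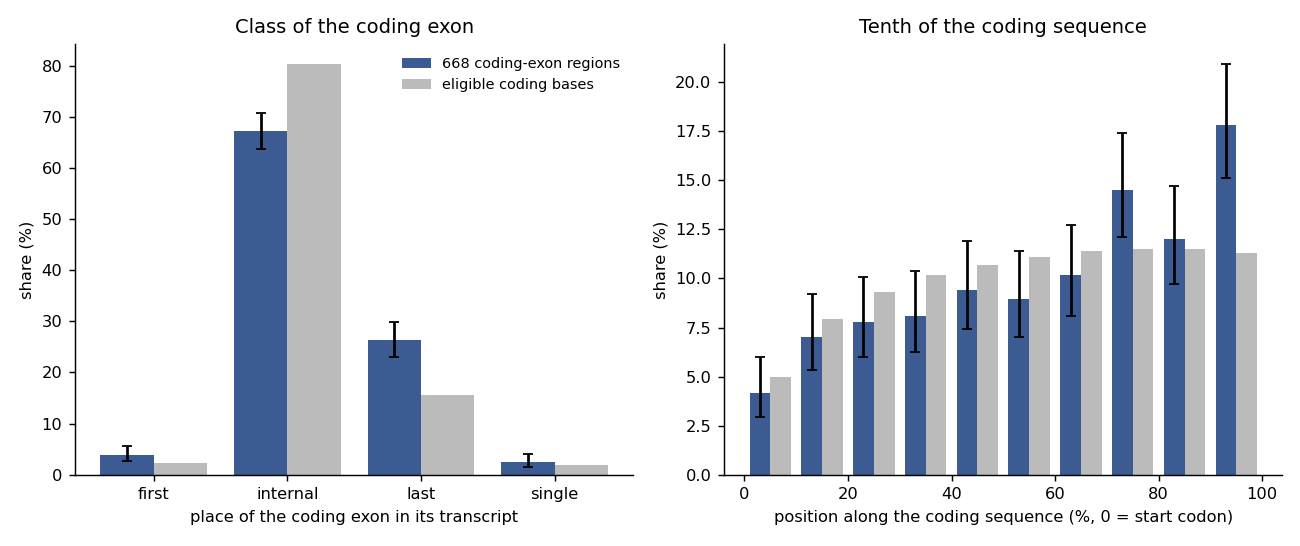
Share of the 668 coding-exon regions (blue, Wilson 95% intervals) and of eligible coding bases (grey) by the class of the coding exon (left) and by position along the coding sequence in steps of 10% from the start codon (right), in percent. Last coding exons held 26.3% of the regions on 15.5% of the bases, and the last 10% of the sequence 17.8% on 11.3%.

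Coding-exon regions were richer in GC and in CpG pairs than each comparison set. Their windows had a median GC of 58.2%, against 48.8% in intronic regions, 48.3% in intergenic regions and 48.8% in windows at the middle of 146395 coding exons over 5 kb from start sites where no library had a peak over the middle of the exon. The CpG observed to expected ratio had a median of 0.508, against 0.227, 0.237 and 0.315. A window was called CpG-rich with at least 55% GC and a ratio of at least 0.65. This held for 30.1% of coding-exon regions (26.7 to 33.7), for 1.41% of intronic and 3.60% of intergenic regions, and for 1.57% of the exons without a peak. The difference from those exons was 28.5 percentage points (Newcombe 95% interval 25.2 to 32.1). Moving the windows from the summits to the middle of the host exons left 31.4% CpG-rich (28.0 to 35.1). The coding-exon regions also lay nearer to start sites, at a median of 23180 bp against 45768 bp for intronic and 75768 bp for intergenic regions, and the part of this distance in the contrasts was not tested.

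A gradient ran through the coding-exon regions of the whole series. Of those called in a single library, 5.41% were CpG-rich (4.50 to 6.50). The share was 7.69%, 8.97%, 11.7% and 14.9% for those called in 2, 3, 4 and 5 libraries, and 30.1% for those called in all 6. Among the 668 it also followed strength, from 19.2% (13.9 to 25.8) in the lowest 167 regions by median rank to 43.7% (36.4 to 51.3) in the highest 167. Width moved with rank too, with a median of 366 bp in the lowest 167 and 809 bp in the highest. Peak strength and depth were not separated from the number of lists, and their part in this gradient was not tested.

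CpG-rich and other coding-exon regions differed in several features that the class does not use. Of the CpG-rich regions, 92 (45.8%) lay in a last coding exon, against 84 of the other 467 (18.0%), a difference of 27.8 points (20.1 to 35.4). The 6 libraries all had their own summit in coding sequence in 72.6% of CpG-rich and 48.4% of other regions, a difference of 24.2 points (16.3 to 31.5). CpG-rich regions were wider (median 728 bp against 436 bp), and lay on longer exons (503 bp against 172 bp). Their ranks had a median of 75.5 against 66.5 and varied less between libraries, with a median standard deviation of 8.13 against 13.8. The median start distance was 11967 bp in CpG-rich and 30903 bp in other regions.

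The CpG-rich share was higher than in peak-free exons within each exon class. Among coding-exon regions, 52.3% of those in last exons (44.9 to 59.5), 53.8% of those in first exons (35.5 to 71.2) and 18.9% of those in internal exons (15.6 to 22.8) were CpG-rich. In exons without a peak the same classes had 2.66%, 2.42% and 1.40%. In genes with a single coding exon the shares were 58.8% (36.0 to 78.4) and 5.57%.

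**Figure D3:**
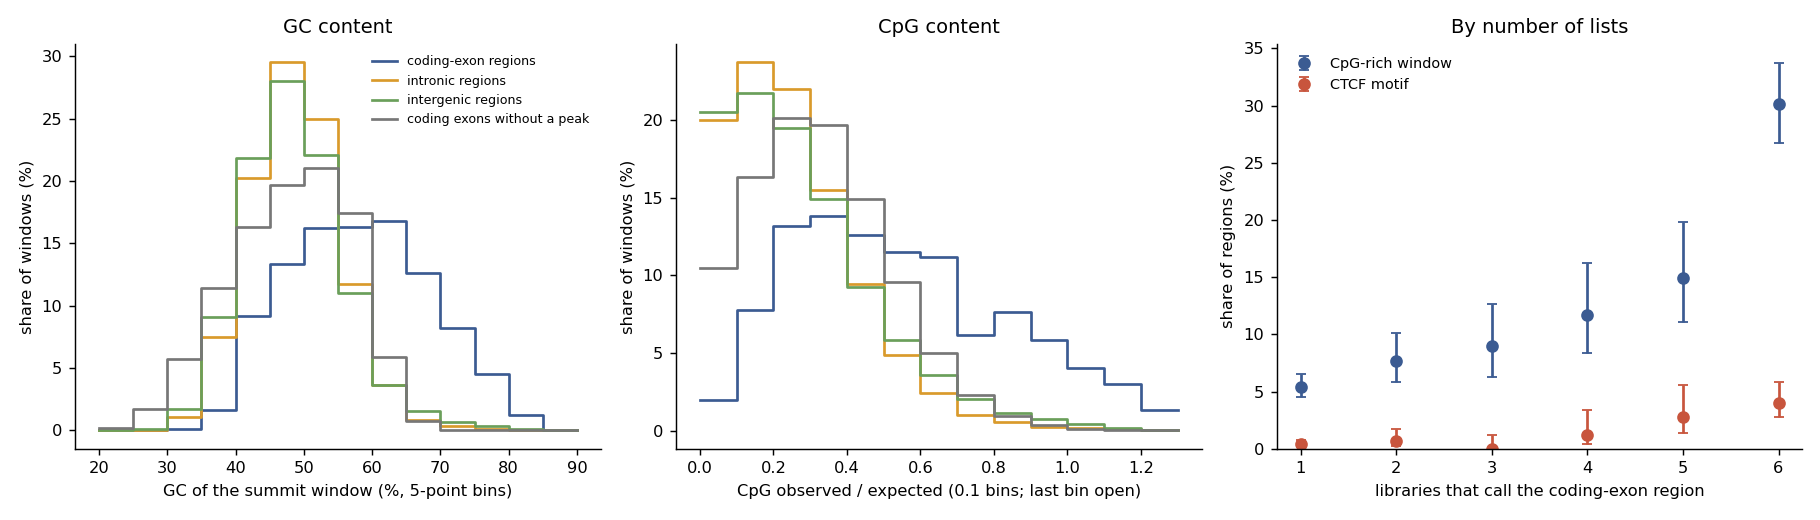
Left and middle, share of summit windows (%) by GC content and by CpG observed to expected ratio for coding-exon regions, intronic and intergenic regions and coding exons without a peak; right, share of coding-exon regions (%, Wilson 95% intervals) with a CpG-rich window or a CTCF motif by the number of libraries that call them. The coding-exon curves lie to the right of the others, and the CpG-rich share goes from 5.41% with 1 library to 30.1% with 6.

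In all, 22 short motifs were sought on both strands of these windows, each as exact letters, and a match is a description of letters and not of binding. Windows of regions are centred on summits and those of peak-free exons on the exon middle. The part of this placement in the motif contrasts was not tested. The CTCF motif was near absent from the windows of exons without a peak. It was present in 27 coding-exon regions (4.04%, 2.79 to 5.82) and in 68 of the 146395 exons without a peak (0.0464%), a difference of 4.00 points (2.75 to 5.77). The share was close to that of intronic (3.23%) and intergenic regions (3.79%), with differences of 0.807 points (-0.469 to 2.60) and 0.249 points (-1.03 to 2.04). By number of libraries, the motif was in 0.405% of coding-exon regions called in 1 library, in 0 of 312 called in 3 (an interval up to 1.22%), in 2.75% of those called in 5 and 4.04% of those called in all 6. Within windows of 55 to 65% GC, a choice made after the data were seen, the shares were 4.98% of coding-exon regions (2.80 to 8.69) and 0.0970% of exons without a peak.

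The CTCF motif lay a median of 44.5 bp from the summit, within 50 bp in 16 of the 27, and its centre was coding in 13. Its strand was uneven. In 22 regions it read on the strand opposite to the host gene and in 5 on the same strand (18.5%, 8.18 to 36.7). For the 13 with the centre in coding sequence the counts were 11 and 2. Intronic regions had 268 motifs on the gene's strand and 341 on the other (44.0% on the gene's strand), and the coding-exon share minus the intronic one was -25.5 points (-36.6 to -6.90). Exons without a peak had 37 and 31. The comparison of strands was added after the data were seen.

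Among the hosts with the motif, Cacna1a, which encodes the pore of a neuronal calcium channel, had the best rank, 94.9. Its −log10 q was 22.3 and 28.8, 26.9 and 25.5, and 26.7 and 31.4 in the libraries labelled maxillary process, mandibular process and nose. By rank, both libraries labelled nose, at 95.6 and 96.6, stood just above the other 4, of which the lowest was 93.3. Gipr, an incretin receptor gene, followed at 89.4 and the zinc finger gene Zfp219 at 89.0. Ranks of the 27 were not high as a class, with a median of 67.9 against 69.5 for regions without the motif.

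GC-rich motifs were also more frequent in coding-exon regions. The SP/KLF motif GGGCGG was in 139 regions (20.8%, 17.9 to 24.0), against 7.77% of intronic, 9.07% of intergenic and 4.26% of peak-free exon windows. The AP-2 motif GCCNNNGGC was in 14.2% (11.8 to 17.1), against 6.82%, 7.09% and 5.68%. Within windows of 55 to 65% GC, AP-2 stood at 13.1%, 13.0%, 13.3% and 12.3% for these sets as listed, and SP/KLF at 23.1%, 21.8%, 25.1% and 9.89%. In that GC range the intervals of coding-exon regions were 18.0 to 29.1% for SP/KLF, which leaves out the share of peak-free exons, and 9.29 to 18.2% for AP-2, which holds it. AP-2 factors are known regulators of the facial neural crest, and SP/KLF factors bind GC boxes.

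Over all windows, some motifs were less frequent in coding-exon regions than in intronic and intergenic regions. The homeobox motif TAATTA was in 1.50% of them (0.815 to 2.73), against 5.37% of intronic regions, 5.09% of intergenic regions and 3.29% of peak-free exons. The forkhead motif TGTTTAC was in 1.20% (0.608 to 2.35), against 2.88%, 3.22% and 2.35%. The TEAD motif GGAATG was in 10.0% (7.98 to 12.5), below the 15.7% and 15.3% of intronic and intergenic regions and level with the 10.5% of peak-free exons. At 55 to 65% GC, the homeobox share was 1.36% in coding-exon regions (0.463 to 3.91), 1.73% in intronic regions, 1.98% in intergenic regions and 0.194% in peak-free exons. In the same GC range the forkhead share was 0.905% in coding-exon regions (0.249 to 3.24), 1.83% in intronic regions, 2.12% in intergenic regions and 0.714% in peak-free exons. The TEAD share was 11.3% in coding-exon regions (7.78 to 16.2), 13.0% in intergenic regions and 8.84% in peak-free exons, and the interval held the intronic share too. In windows of like GC the order against peak-free exons was thus turned round for the homeobox and forkhead motifs, on 3 and 2 coding-exon regions, and the TEAD share, level over all windows, was the higher one. For all 3 motifs the interval in coding-exon regions held the intronic and intergenic shares, and for forkhead and TEAD also that of peak-free exons. Of the 22 motifs, 7 were more and 6 less frequent than in peak-free exons by intervals that leave out 0, and 5 more and 7 less frequent than in intronic regions.

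**Figure D4:**
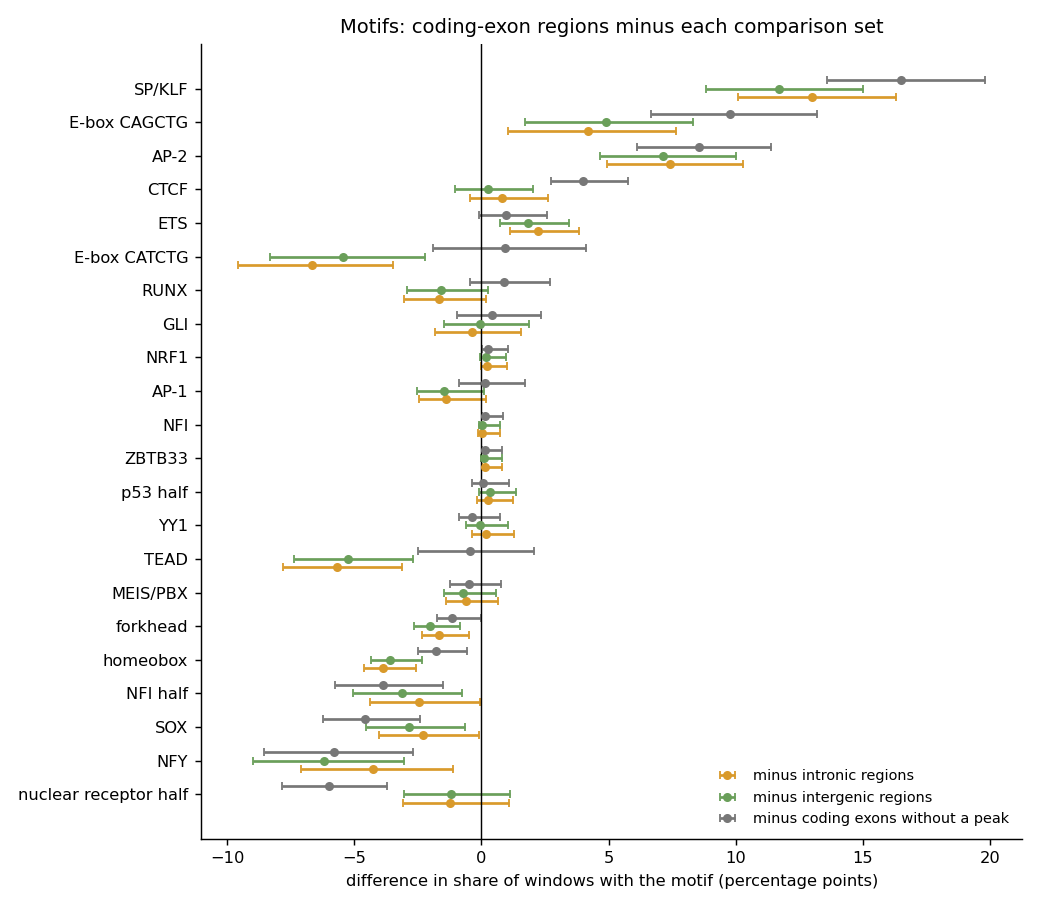
Difference in the share of summit windows that hold each of 22 motifs (horizontal axis, percentage points, Newcombe 95% intervals) between coding-exon regions and each of 3 comparison sets. CTCF lies 4.00 points above exons without a peak and near 0 against intronic and intergenic regions, and SP/KLF lies above all 3 sets.

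Start sites of transcripts that are not protein-coding, such as long noncoding RNAs or retained introns, lay within 1 kb of 33 summits (4.94%, 3.54 to 6.86), against 1.97% of intronic and 3.81% of intergenic regions. The interval holds the intergenic share. Summits in exons of such transcripts were left out of the intronic and intergenic sets but not of the coding-exon regions. The lower shares of those 2 sets are thus in part fixed by how the sets were made. Such a start was near 8.46% of CpG-rich and 3.43% of other coding-exon regions. This difference of 5.03 points had an interval that leaves out 0. At least 1 promoter of the host gene, a region called in all libraries within 1 kb of a protein-coding start, was present for 512 of the 622 hosts (82.3%), against 76.2% of the other genes with eligible bases, a difference of 6.15 points (2.88 to 9.03). As a check on the tissue, promoters were called in all libraries for 8 of 8 facial marker genes such as Msx1, Alx4 and Tfap2a and for 2 of 8 liver, heart and pancreas genes, Alb and Actn2.

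Of the facial transcription factors listed, 7 of 65 with eligible bases held a coding-exon region (10.8%, 5.32 to 20.6), beside 4.16% of all genes. Barx2, a homeobox gene of facial and muscle development, had the best rank of them, 83.7. Its rank percentile was 77.8 and 85.8 in the libraries labelled maxillary process, 80.4 and 83.0 in those labelled mandibular process and 86.9 and 84.3 in those labelled nose, so that the labels overlapped.

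Foxp1, a forkhead gene, and Runx1, a Runt factor, followed at median ranks of 77.5 and 70.6, and Zfhx4 at 53.2. The Runx1 region was in the last of 7 coding exons with 70.6% GC and a CpG ratio of 0.926. Eya4 and Eya2, phosphatases that act as cofactors of homeobox proteins, stood at 50.3 and 45.2. The paired box gene Pax9, needed for palate and teeth, was lowest at 31.1, with −log10 q between 2.01 and 4.09 in the 6 libraries. The median rank of these 7 was 53.2, beside 69.5 over all 668 regions. Barx2, Foxp1 and Runx1 lay above that value and the others below it.

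Among facial signalling genes, 5 of 61 held a region (8.20%, 3.55 to 17.8), beside 4.16% of all genes. Besides Lrp6 these were the BMP receptor gene Bmpr1b, the Notch receptor gene Notch3, Shh, the hedgehog ligand of facial epithelium, and Ptch1, its receptor. In Bmpr1b the −log10 q was 14.6 and 39.9 in the libraries labelled maxillary process, 24.0 and 23.2 in those labelled mandibular process and 20.6 and 24.1 in those labelled nose. By rank, the 2 libraries of the first label were the lowest and the highest of the 6, at 88.9 and 96.8, so the labels overlapped. The region was narrow, 288 bp around the 139 bp coding exon 5 of 10, 68.5 kb from a start site.

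For Shh the values were 4.48 and 10.9, 3.48 and 6.52, and 4.16 and 4.27. The region covered 586 bp in the last of 3 coding exons, 9.07 kb from the start, with 73.1% GC and a CpG ratio of 1.19. Ptch1 had 3.15 and 4.23, 6.94 and 7.41, and 3.63 and 5.24, and by rank both libraries labelled mandibular process, at 66.0 and 70.8, stood above the other 4. Notch3 ranged from 3.41 to 8.28.

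A facial gene other than the host was the nearest start in 2 cases. The region in the last coding exon of Lrriq1 lay 33.2 kb from Alx1, a homeobox gene of the midface, and had a median rank of 87.6. That in exon 4 of Wars2, a mitochondrial tRNA synthetase gene, lay 48.5 kb from Tbx15 and had 61.4.

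Of the 4 genes listed for coding-exon enhancers in earlier literature, Hdac9 and Adamts5 held a coding-exon region. Hdac9 encodes a histone deacetylase, and enhancers of its neighbour Twist1, a master gene of facial mesenchyme, are known within it. The region covered 1199 bp around coding exon 19 of 25, 258 kb from the start of Twist1 and 222 kb from the nearest start, of Hdac9 itself. The −log10 q was 22.6 and 33.1 in the libraries labelled maxillary process, 20.4 and 18.2 in those labelled mandibular process and 7.04 and 11.2 in those labelled nose. Both libraries labelled nose were below the other 4, also by rank, at 71.1 and 81.6 against 90.6 to 94.9.

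Adamts5, which encodes a protease of the extracellular matrix, had 6.53 and 24.3, 4.95 and 4.36, and 9.91 and 9.34 in exon 2 of 8. The libraries labelled mandibular process were lowest, also by rank, at 53.6 and 53.4 against 70.7 to 90.9. In Dync1i1 no coding summit was found in any list. The coding summit of Col15a1, called in all 6 lists, lay 0.354 kb from a start site and was no member.

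Other lists, all chosen with results of these data known, are given by counts, with no test. Over all genes with eligible bases the share was 4.16%. Matrix and basement membrane genes had 12 of 80 (an interval of 8.79 to 24.4%), led by the fibrillin gene Fbn2 at a median rank of 93.0. Per megabase of coding sequence these genes had 35.1 regions, beside 28.1 over all. Cytoskeletal giants and spectrins had 6 of 42 (14.3%, 6.72 to 27.8) and 18.3 per megabase, led by Syne1. Ion channels had 16 of 162 (9.88%, 6.17 to 15.4) and 43.6 per megabase, led by Cacna1a.

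Cadherin superfamily genes had 6 of 76 (7.89%, 3.67 to 16.2), led by Cdh20 at 90.7. Axon guidance genes had 5 of 66 (7.58%, 3.28 to 16.5), led by the semaphorin Sema4a at 85.2. Both intervals held the 4.16% of all genes. Zinc finger genes had 17 of 388 (4.38%), led by Prdm2, and chromatin regulators 3 of 73 (4.11%), led by Kmt2e at 93.1. Per megabase the cadherin list had 36.8 regions, axon guidance 28.7, zinc finger genes 26.2 and chromatin regulators 7.61, beside 28.1 over all.

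Spearman's rho between the ranks of 2 libraries over the 668 regions was 0.762, 0.812 and 0.803 for the 2 libraries of each label and 0.654 to 0.724 for libraries of different labels. Over all 69940 regions it was higher in each of the 15 pairs, at 0.841, 0.862 and 0.855 and at 0.720 to 0.773. These are descriptions over regions that are not independent. Regions were also counted for which both libraries of a label ranked above, or below, the other 4 without overlap, beside the same share of the 69940 regions called in all lists. Both libraries labelled nose ranked higher in 81 regions (12.1%, 9.86 to 14.8; background 11.7%) and lower in 50 (7.49%, 5.72 to 9.73; background 9.47%). Those labelled maxillary process ranked higher in 48 (7.19%, 5.46 to 9.40; background 6.84%) and lower in 69 (10.3%, 8.24 to 12.9; background 11.1%). Those labelled mandibular process ranked higher in 63 (9.43%, 7.44 to 11.9; background 13.0%) and lower in 61 (9.13%, 7.17 to 11.6; background 8.36%).

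Only the count of higher ranks for the mandibular label lay away from its background, below it. That background includes regions near start sites. Among intronic and intergenic regions over 5 kb from start sites the same shares were 14.8% and 14.5%. For lower ranks of the nose they were 10.5% and 10.3%, so that this count too lay below them. The intervals of the remaining counts held both shares. With ranks taken among the regions called in all lists, added after the data were seen, the mandibular share of higher ranks was 9.58% beside 11.4%. The background then fell within the interval. The shares for the maxillary label and the nose became 11.4% beside 9.86% and 12.4% beside 11.6%. With lists cut to equal length, where 537 coding-exon regions were left, the shares were 12.3% (9.78 to 15.3; background 9.73%) for the maxillary label, 9.50% (7.30 to 12.3; background 11.2%) for the mandibular label and 11.4% (8.95 to 14.3; background 10.8%) for the nose. The maxillary share then lay just above its background and the mandibular share no longer lay away from it. With peaks of −log10 q of at least 3, 422 regions were left, and the shares were 5.92% (4.04 to 8.60; background 6.14%), 5.92% (4.04 to 8.60; background 8.06%) and 5.21% (3.47 to 7.77; background 6.39%) in the same order. With strongest summits taken by fold, the mandibular share was 9.69% (7.67 to 12.2), beside a background of 13.0%. With every library's own summit in coding sequence it was 8.60% (6.16 to 11.9), again beside 13.0%. Under both settings it thus stayed below its background. The position of a label's share against its background rested on how the lists were ranked and trimmed, and for the mandibular label less on these summit rules. With 2 libraries against 4, no test was made.

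CpG-rich regions, which rank higher and vary less between libraries (above), had both libraries of a label apart from the other 4 less often in 3 of these 6 counts, with intervals that leave out 0. Both libraries labelled nose ranked higher in 10 CpG-rich regions (4.98%) and in 71 others (15.2%), a difference of -10.2 points (-14.4 to -5.29). The same split over all 69940 regions gave 7.66% and 12.7%, a difference of -5.05 points (-5.57 to -4.51), and over those more than 5 kb from start sites 9.26% and 12.7%, -3.45 points (-4.80 to -1.90). For lower ranks of the mandibular label the values were 4.48% and 11.1%, a difference of -6.66 points (-10.5 to -2.08), and over all regions -3.33 points (-3.77 to -2.86). For lower ranks of the maxillary label the difference was -5.52 points (-9.73 to -0.493), and over all regions -3.64 points (-4.17 to -3.10). Over all regions CpG-rich windows had the lower share in all 6 counts, so the direction of these differences was not particular to coding exons. The intervals of the other 3 counts held 0, among them that for higher ranks of the mandibular label (9.95% and 9.21%, -3.78 to 6.17).

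The widest gaps, chosen for their size and so without a test, were in regions whose median rank over the libraries lay under the median of all members. For the nose, Larp4b had rank percentiles of 59.4 and 74.3 against 2.97 to 16.5 in the other 4 libraries. Acpp, an acid phosphatase gene, had 50.9 and 74.3 against 8.16 to 17.1, and Ghrhr, the receptor gene for growth hormone releasing hormone, had 56.8 and 62.8 against 5.15 to 29.4. All 3 were thus at the weak end of the other lists. Their strongest summit, which made them coding-exon regions, came from a library labelled nose. A library's own summit lay in coding sequence in 2 libraries for Larp4b and in 3 each for Acpp and Ghrhr. In the remaining libraries the ranks are those of peaks with a summit outside coding sequence.

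For the maxillary label, the ATPase gene Atp13a4 had ranks of 68.2 and 76.6 against 6.56 to 28.9, and Ccdc30 had 73.6 and 74.0 against 8.16 to 38.8. Iglon5, a neural adhesion gene, had 87.1 and 86.9 against 33.6 to 63.3. Its ranks were the highest among the regions named here for their gaps. For the mandibular label, the collagen gene Col5a2 had 78.4 and 84.2 against 28.9 to 59.0. Ccdc81 had 67.7 and 73.7 against 16.5 to 47.1. Of these genes, Col5a2 belongs to the matrix list and none to the facial lists. In each region named for its gap under a jaw label, 5 or 6 libraries had their own summit in coding sequence.

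**Figure D5:**
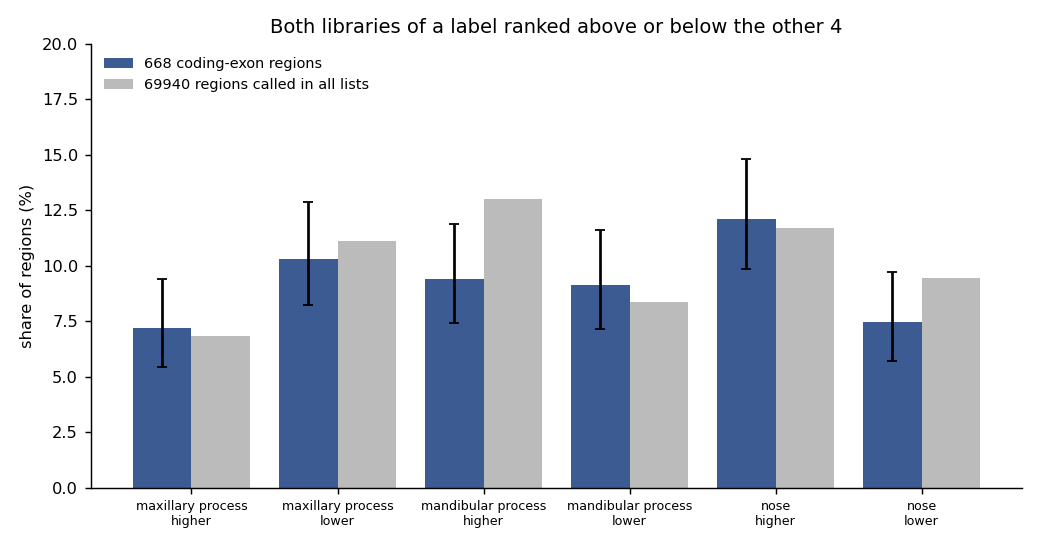
Share of regions (%) in which both libraries of a label rank above (higher) or below (lower) the other 4, for the 668 coding-exon regions (blue, Wilson 95% intervals) and for all 69940 regions called in every list (grey). The pairs of bars lie close together, and the widest distance is 9.43% against 13.0% for higher ranks of the mandibular label.

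Coding-exon regions were also counted among regions seen in 1 label alone. Among regions found by both libraries with 1 label and by no further library, coding-exon regions over 5 kb from start sites were 63 of 7282 (0.865%, 0.677 to 1.11) for the maxillary label, 80 of 10788 (0.742%, 0.596 to 0.922) for the mandibular label and 104 of 12140 (0.857%, 0.708 to 1.04) for the nose. The intervals of the maxillary label and the nose held the 0.955% of regions called in all libraries, and that of the mandibular label lay below it. These shares count regions near start sites in the whole, and the part of such regions was not matched between the sets. They therefore do not compare distal regions alone, where the share for all libraries was 1.39%.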

How the data were processed

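Per the labels, 2 libraries for each of 3 labels were read from 1 end over 50 bp. Bowtie2, SAMtools and mm10 are named in the submitters' processing notes with no version, and which program called the peaks is not given in the sources used here. The authors deposited 1 narrowPeak list per library, made from that library by itself. Each deposited summit has a score, a ratio (its fold over background), and its −log10 p and −log10 q. Neither reads nor coverage were used, so depth is unknown. Strengths were ordered by rank within a list, and −log10 q is printed beside the ranks and set the limits of 2 alternatives.

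Peaks were merged at 1 bp and summits placed on the GENCODE M21 basic annotation. The genome GRCm38.p6 was used for sequence. All peaks fell within its chromosomes, and 99.9% of 25533 annotated start codons read ATG there, so it has the coordinates of mm10. The host was the gene with the longest coding transcript at the summit, and eligible bases were counted on the longest coding transcript of each gene. Exons without a peak were those of any coding transcript whose middle lay in no merged region. Windows took 100 bp on each side. Shares have Wilson and differences Newcombe 95% intervals. Members, lists and named genes were chosen with earlier results of these data known. Named were the 12 best by median rank, the 5 genes with most regions, the 3 widest gaps per label (1 of them is not reported here), the best of each list, 4 genes listed for coding-exon enhancers, those next to the 5 kb limit, the 3 lowest ranks, the 3 best with a CTCF motif and the 3 longest exons. Added after values were seen were all other hosts of the facial lists with Lrriq1 and Wars2. No test was run, since the lists hold no counts and regions are not replicates. The split of label order by CpG class over all regions, and the backgrounds under stricter q and equal list lengths, were added after values were seen. The functions were tested on simulated lists with planted regions. Python 3.11.15, numpy 2.4.6, pandas 2.3.3, scipy 1.17.1, pysam 0.24.0 and matplotlib 3.10.9 were used. Alternatives were stricter q, equal list lengths, other overlap, summit, distance, annotation and window rules, and leaving out each library.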

Additional observations from a re-analysis of the deposited data

How the results depend on the processing

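The regions depend on the calls at the weak end of the lists. With peaks of −log10 q of at least 3, 422 regions in 409 host genes were left, median GC was 59.7%, 6.87% lay within 1 kb of a start of another biotype, and both libraries ranked higher in 25 regions for the maxillary label, 25 for the mandibular label and 22 for the nose, or 5.92%, 5.92% and 5.21% beside 6.14%, 8.06% and 6.39% of all regions called in every list at that limit. At 5 or more, 256 regions in 251 genes were left, 0.815% of all regions called in every list, with 32.0% in last coding exons, median GC of 61.4% and 7.81% near another start. When every library's own summit had to be coding, 372 regions in 349 genes were left (0.532%), with 32.5% in last exons, median GC of 61.2%, and 29, 32 and 41 regions ranked higher for the 3 labels in that order. Start sites over 10 kb away gave 0.706% and median GC of 55.2%, and over 2 kb away 1.21% and 60.2%. With all transcript types and start sites the share was 0.824%, and by that rule 0% lay near another start. Windows of 50 bp on each side gave median GC of 60.4% and the CTCF motif in 2.10%, and windows of 200 bp median GC of 55.5%. Ranks taken only over regions called in all lists, an alternative chosen after seeing the data, gave 76 for the maxillary label, or 11.4% beside 9.86%. The stricter q and summit settings keep fewer regions by construction, and the cause of the other changes was not tested. Leaving out 1 library at a time gave 682 to 760 regions, of which 627 to 653 of the 668 remained, with last-exon shares of 25.3 to 26.3%, median GC of 57.2 to 57.7% and CTCF shares of 3.78 to 4.25%. Strongest summits by fold gave 671 regions and kept 654 of the 668. When the peaks of each library had to cover at least 50% or 200 bp of the merged region, 456 of the 668 were left. No paired analysis was possible because no result comes from a test. Without the 5 regions whose 50-base words recur in the genome, chosen after the data were seen, no value moved by more than its interval or 1.5 times. Depth in reads was not used, so weak regions absent from a list cannot be told from regions missed there.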
